A study of Homo sapiens with 6 samples.

Results

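The adenylyl cyclase family was followed in EndoC-βH1 cells, a human pancreatic beta cell line of fetal origin, after siRNA against MNX1. The members are the genes with the symbols ADCY1 to ADCY10 in the deposited table. There were 9 of them among 16792 genes, ADCY1 to ADCY9, and ADCY10 was not analysed here. The study asked what the homeobox factor MNX1 represses in human beta cells. One group had received siRNA against MNX1, siMNX1 (3 libraries, genotype labelled MNX1 knock down), and the other a non-targeting siRNA, siNT (3 libraries, genotype labelled WT). Both groups are the same transfected cell line, and the labels name neither the time after transfection nor the siRNA sequences. Nothing in the labels says that the replicates were separate cultures, so p-values measure the spread between these libraries, which may be technical.

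Adenylyl cyclases make cyclic AMP from ATP. In beta cells the enzymes at the plasma membrane sit between G protein-coupled receptors and protein kinase A or EPAC, and cyclic AMP made after incretin hormones bind their receptors raises insulin release. ADCY1, ADCY3 and ADCY8 are grouped as calcium and calmodulin-stimulated enzymes, ADCY2, ADCY4 and ADCY7 as enzymes that Gβγ subunits stimulate together with Gsα, and ADCY5 and ADCY6 as enzymes inhibited by Giα and by calcium. ADCY9 forms a group of its own and responds poorly to the plant diterpene forskolin.

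The promoter of ADCY2 is shown because ADCY2 is the abundant member that rose, beside that of ADCY3, an equally GC-rich promoter of a member that did not pass the test. Both are the 250 bases before a RefSeq transcript start on GRCh38.p14, ADCY2 at chr5:7395888-7396137 on the plus strand and ADCY3 at chr2:24920238-24920487 on the minus strand. Each is written 5′ to 3′ on the gene's own strand, and the capitals mark matches on either strand to GGGCGG, the GC box, and to TGACG, the short core of a cyclic AMP response element.
ADCY2: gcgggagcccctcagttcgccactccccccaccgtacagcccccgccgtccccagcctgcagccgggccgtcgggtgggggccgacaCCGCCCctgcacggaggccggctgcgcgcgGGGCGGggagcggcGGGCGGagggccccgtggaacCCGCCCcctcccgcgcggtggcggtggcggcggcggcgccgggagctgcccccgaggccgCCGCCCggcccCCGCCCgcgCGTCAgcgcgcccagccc
ADCY3: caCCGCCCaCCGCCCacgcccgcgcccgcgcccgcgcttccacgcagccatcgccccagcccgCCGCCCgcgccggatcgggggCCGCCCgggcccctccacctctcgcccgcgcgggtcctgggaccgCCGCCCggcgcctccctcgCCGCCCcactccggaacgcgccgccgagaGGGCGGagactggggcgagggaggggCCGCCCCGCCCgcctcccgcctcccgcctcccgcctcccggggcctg
Both windows were 85.2% G and C, above 99.6% of the 35116 promoter windows in the RefSeq table, whose median was 58.0%. GGGCGG had 6 matches in the ADCY2 window and 9 in the ADCY3 window, and 42.6% of all windows held at least 1. TGACG had 1 match in the ADCY2 window and 0 in this ADCY3 window, against 21.2% of all windows with a match. A second ADCY3 window, not printed, held 1 TGACG and 2 GGGCGG. Neither window held TAATTA, a core that many homeodomain proteins bind (in 4.35% of all windows), the full response element TGACGTCA (1.65%) or TATAAA (10.7%). These searches read letters in short windows and carry no statement about any factor.

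Deposited totals of normalized counts, which follow the authors' scaling and are not depths, ran from 18406479 to 18704645 a library. MNX1 itself averaged 1781 ± 92.4 normalized counts in siMNX1 and 2020.0 ± 28.1 in siNT libraries (SD, n = 3 each), a log2 fold change of -0.18 that was not called (adjusted p of 0.116 by limma). It was thus only slightly lower in the libraries labelled as knock down. PERCC1, which the study's title names as repressed by MNX1, rose, at 842 ± 59.1 in siMNX1 against 44.3 ± 9.25 in siNT libraries (limma, adjusted p = 2.47e-06). The somatostatin gene, SST, had 858 ± 24.5 in siMNX1, against 220.2 ± 16.6 in siNT libraries, and was called higher (limma, adjusted p = 3.97e-06). All 12 beta cell markers were measured, and INS had 125386 ± 5655 in siMNX1 and 110539 ± 3758 in siNT libraries. Mitochondrial transcripts made up 5.39% to 6.81% of a library. On the first principal component (29.4% of the variance), siMNX1 libraries lay between -23.4 and -18.1 and siNT libraries between 20 and 22.8. On the second principal component (20.1% of the variance), siMNX1 replicates 1 and 2 lay at 29.4 and -31.7 and the other 4 libraries between -2.66 and 2.4.

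Of the 9 adenylyl cyclase genes, 2 were higher, 0 were lower and 7 did not pass the threshold in siMNX1 against siNT cells. ADCY2 and ADCY8 were the genes that rose. Tests were limma fits over all 16792 genes on log2(value + 1), with an adjusted p of 0.05 as the threshold, and by this rule 1.99% of all genes were higher and 1.33% lower. With a log2 fold change of at least 1 added, which ADCY2 and ADCY8 also met, 0.381% of all genes were higher. The groups did not overlap for 3 members, ADCY2, ADCY8 and ADCY6, where 24.0% of all genes had groups that did not overlap. The same 3 had an unadjusted p under 0.05, where 18.4% of all genes did. The median log2 fold change was 0.12 over the 9 members and -0.00045 over all genes. Every one of the 9 was in the deposited table and none was removed by a filter on low values. However, 4 members averaged under 50 normalized counts (ADCY4, ADCY5, ADCY7 and ADCY8), and fold changes of such low genes are understated on this scale and more scattered. In bulk RNA, more cells with a transcript and more transcript per cell cannot be told apart.

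**Figure D1:**
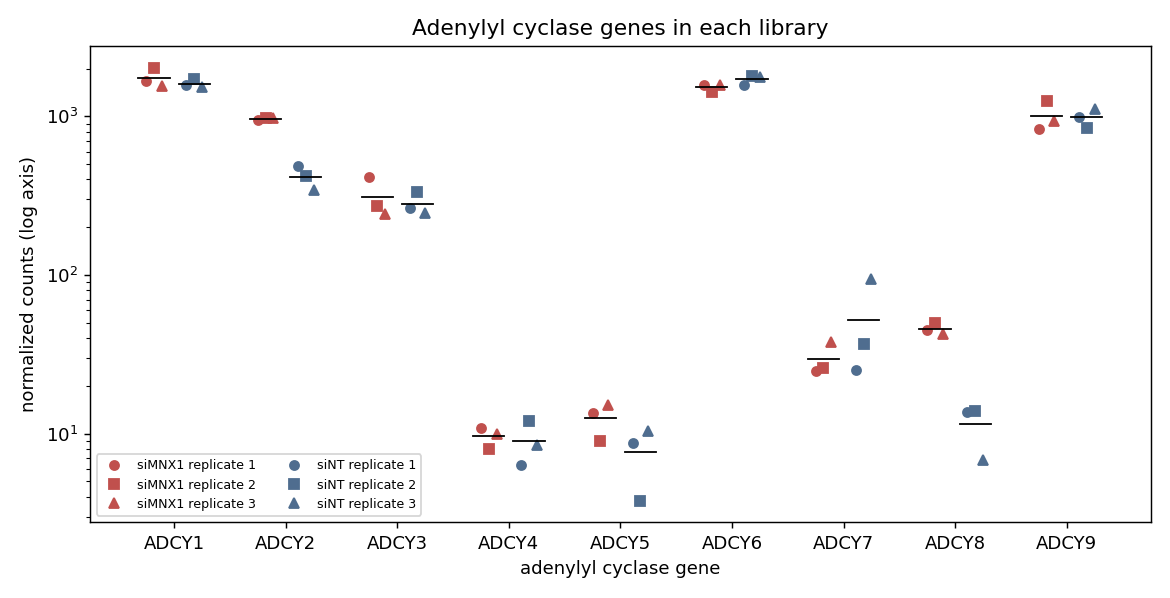
Normalized counts of each adenylyl cyclase gene (log axis) in the 3 siMNX1 libraries (red, left of each pair) and the 3 siNT libraries (blue, right), with replicates by symbol and black lines at group means. ADCY2 lies between 953 and 978 in siMNX1 and between 344 and 488 in siNT libraries, and ADCY8 between 42.2 and 49.6 in siMNX1 and between 6.82 and 13.9 in siNT libraries.

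Among the Gβγ-stimulated enzymes, ADCY2 had 953, 972 and 978 normalized counts in siMNX1 replicates 1 to 3, against 488, 418 and 344 in siNT replicates 1 to 3. The lowest siMNX1 library stood above the highest siNT library, and the siMNX1 libraries were closer together (968 ± 13.0) than the siNT libraries (417 ± 72.0). ADCY2 thus rose 2.32-fold by group means. Its log2 fold change from the limma fit on log2(value + 1) was 1.23 (95% interval 0.97 to 1.48, SE 0.114, limma, adjusted p = 0.000536). ADCY2 was the 35th gene by adjusted p in the whole table, and was called with any one library left out. The gene (ENSG00000078295) spans positions 7396208 to 7830081 of chromosome 5 on the plus strand (GRCh38, GENCODE 29).

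ADCY7, best known from immune cells, had 24.9, 26.1 and 37.9 normalized counts in siMNX1 replicates 1 to 3, against 25.3, 36.5 and 94.3 in siNT replicates 1 to 3. The groups overlapped, and siNT replicate 3 alone lay far above the other libraries. The log2 fold change was -0.60 (95% interval -1.55 to 0.36, limma, adjusted p = 0.502), and it was -0.06 without siNT replicate 3. The annotated end of ADCY7 overlaps BRD7 on the opposite strand, a gene with 3607 ± 255 in siMNX1 and 3914 ± 40.7 in siNT libraries. Whether counting used strand is not given in the sources used here, so reads from the overlap cannot be told apart. ADCY4 had 10.9, 8.03 and 10 normalized counts in siMNX1 and 6.31, 12 and 8.54 in siNT libraries. At these low values the groups overlapped (log2 fold change 0.13, interval -0.76 to 1.01, limma, adjusted p = 0.9).

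Among the calcium and calmodulin-stimulated enzymes, ADCY8, which is studied in beta cells as a sensor that joins calcium and incretin signals, had 45.2, 49.6 and 42.2 normalized counts in siMNX1 replicates 1 to 3, against 13.7, 13.9 and 6.82 in siNT replicates 1 to 3. All siMNX1 libraries stood above all siNT libraries. ADCY8 rose 3.97-fold by group means (45.7 ± 3.72 in siMNX1 against 11.5 ± 4.05 in siNT, SD, n = 3 each). Its log2 fold change from the limma fit was 1.96 (95% interval 1.25 to 2.67, SE 0.317, limma, adjusted p = 0.0113). Without siMNX1 replicate 1 the adjusted p was 0.0506, just outside the threshold, at a log2 fold change of 1.96. The gene (ENSG00000155897) lies on chromosome 8 from 130780301 to 131042426 on the minus strand (GRCh38, GENCODE 29). ADCY2 and ADCY8 each overlap 1 annotated gene on the opposite strand that was not analysed here. The same is true of ADCY5, ADCY6 and ADCY9, so the limit on strand holds for all of these too.

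ADCY1, a cyclase first known from brain, had 1662, 2029 and 1545 normalized counts in siMNX1 replicates 1 to 3, against 1575, 1715 and 1527 in siNT replicates 1 to 3. The groups overlapped, with siMNX1 replicate 2 the highest library. The log2 fold change was 0.11 (95% interval -0.10 to 0.33, limma, adjusted p = 0.583). ADCY3, which acts in olfactory and primary cilia, had 416, 272 and 243 in siMNX1 and 263, 332 and 245 in siNT libraries. Here siMNX1 replicate 1 was the highest library, and the groups overlapped (log2 fold change 0.12, interval -0.31 to 0.55, limma, adjusted p = 0.793). ADCY3 was at -0.11 without siMNX1 replicate 1. Its span overlaps CENPO and ENSG00000271936 on the opposite strand, with 806 ± 18.4 and 41.4 ± 3.64 normalized counts in siMNX1 and 840.2 ± 65.1 and 40.7 ± 4.48 in siNT libraries.

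Of the Gi- and calcium-inhibited enzymes, ADCY6 had 1571, 1430.0 and 1567 normalized counts in siMNX1 replicates 1 to 3, against 1575, 1800.0 and 1778 in siNT replicates 1 to 3. The groups did not overlap, but siMNX1 replicate 1 and siNT replicate 1 were almost level. ADCY6 was not called, at a log2 fold change of -0.17 (95% interval -0.33 to -0.02, limma, unadjusted p = 0.0335, adjusted p = 0.22). ADCY5, a gene at a locus linked to type 2 diabetes and fasting glucose, had 13.6, 8.96 and 15.2 in siMNX1 and 8.76, 3.79 and 10.4 in siNT libraries. These low values overlapped between groups, and the interval of its log2 fold change of 0.72 ran from -0.30 to 1.73 (limma, adjusted p = 0.442). Without siNT replicate 2, the lowest library, the ADCY5 log2 fold change was 0.33. ADCY9 had 828, 1246 and 934 in siMNX1 and 993, 850.5 and 1111 in siNT libraries, with the groups interleaved (log2 fold change 0.01, interval -0.31 to 0.34, limma, adjusted p = 0.975). For ADCY1, ADCY3, ADCY6 and ADCY9 the intervals exclude a doubling or a halving, while those of ADCY4, ADCY5 and ADCY7 are wide.

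**Figure D2:**
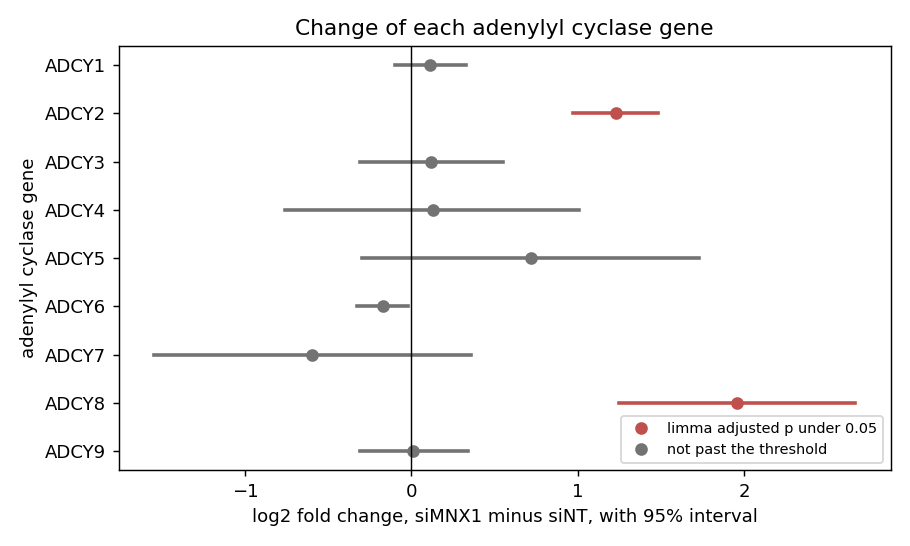
Log2 fold change (siMNX1 minus siNT) of each adenylyl cyclase gene with its 95% interval from limma, red where the adjusted p is under 0.05. ADCY2 (1.23) and ADCY8 (1.96) lie to the right of 0, the interval of ADCY6 ends at -0.02, and those of the other 6 genes include 0.

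Levels of different members were compared as normalized counts per kilobase of annotated exon, which corrects for length. The order in siMNX1 libraries was ADCY6 (181 ± 9.52 per kilobase), ADCY1 (126 ± 18.3), ADCY9 (96.8 ± 21.0), ADCY2 (55.2 ± 0.74), ADCY3 (51.2 ± 15.3), ADCY8 (7.66 ± 0.624), ADCY7 (3.43 ± 0.834), ADCY5 (1.42 ± 0.367) and ADCY4 (1.2 ± 0.182). In that order the library ranges of ADCY1 and ADCY9, of ADCY2 and ADCY3 and of ADCY5 and ADCY4 overlapped, and those of the other neighbours did not. In siNT libraries the order was ADCY6 (204 ± 14.8 per kilobase), ADCY1 (116 ± 7.06), ADCY9 (95.1 ± 12.6), ADCY3 (46.2 ± 7.59), ADCY2 (23.8 ± 4.1), ADCY7 (6.03 ± 4.29), ADCY8 (1.93 ± 0.679), ADCY4 (1.11 ± 0.356) and ADCY5 (0.863 ± 0.389). There the ranges of ADCY8 and ADCY4 and of ADCY4 and ADCY5 overlapped. On this scale the ADCY2 range lay inside that of ADCY3 in siMNX1 libraries, and ADCY2 was below ADCY3 in every siNT library, an order that turned round with coding length.

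Per kilobase of exon, ADCY2 made up 10.4%, 10.1% and 11.2% of the summed family level in siMNX1 replicates 1 to 3, against 5.85%, 4.7% and 3.89% in siNT replicates 1 to 3. ADCY8 made up 1.46% ± 0.0463 in siMNX1 and 0.391% ± 0.142 in siNT libraries, so it stayed a minor transcript. The share of ADCY6 was 34.6% ± 3.37 in siMNX1 and 41.2% ± 1.55 in siNT libraries, and the groups did not overlap. The Gβγ-stimulated enzymes together held 11.4% ± 0.788 in siMNX1 and 6.24% ± 0.405 in siNT, and the groups did not overlap. ADCY2 carried that class, with 55.2 of 59.8 per kilobase in siMNX1 and 23.8 of 30.9 in siNT libraries, while ADCY4 and ADCY7 were not called. The calcium and calmodulin-stimulated enzymes held 35.3% ± 2.98 in siMNX1 and 33.2% ± 2.78 in siNT, with groups that overlapped. The Gi- and calcium-inhibited enzymes held 34.9% ± 3.45 in siMNX1 and 41.4% ± 1.52 in siNT, and the groups did not overlap. The summed level was 524 ± 26.2 per kilobase in siMNX1 (499 to 551) and 495 ± 17.5 in siNT libraries (475 to 507), with groups that overlapped at this length. Shares of 1 family are tied to each other, so a larger share of ADCY2 lowers the summed share of the others.

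These levels depend on the length used, because the exons annotated for ADCY2 (17538 bases) far exceed its coding length (3273 bases). Per kilobase of coding length, ADCY1 led in siMNX1 libraries (520.0 ± 75.2), followed by ADCY6 (434 ± 22.9), ADCY2 (296 ± 3.96) and ADCY9 (247 ± 53.6). In siNT libraries ADCY6 (490.2 ± 35.4) and ADCY1 (478 ± 29) were followed by ADCY9 (243 ± 32.1) and ADCY2 (127 ± 22). ADCY3 was at 90.3 ± 26.9 in siMNX1 and 81.5 ± 13.4 in siNT libraries on that scale, below ADCY2 in every library of both groups. Per kilobase of the longest transcript, ADCY2 (96.2 to 98.7) was above ADCY3 (48.1 to 82.3) in siMNX1 libraries, and ADCY2 (34.7 to 49.2) and ADCY3 (48.6 to 65.8) overlapped in siNT libraries. The summed family level did not overlap between groups at either of these lengths, with 1537 to 1722 in siMNX1 against 1405 to 1478 in siNT libraries per kilobase of coding length, and 651 to 712 in siMNX1 against 608 to 645 in siNT libraries per kilobase of the longest transcript. By coding length ADCY2 held 18.3% ± 1.09 of the family in siMNX1 and 8.83% ± 1.69 in siNT libraries.

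**Figure D3:**
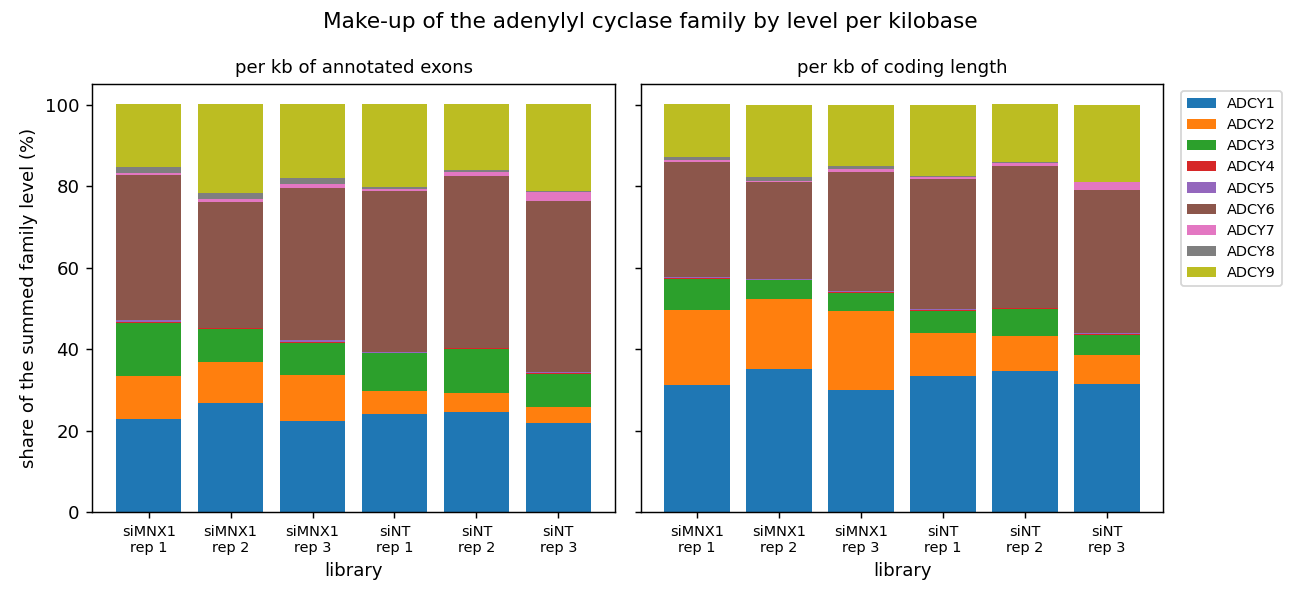
Share of each adenylyl cyclase gene in the summed family level of each library, with levels per kilobase of annotated exon (left panel) and of coding length (right panel), siMNX1 libraries left of siNT libraries. The ADCY2 segment averages 10.5% in siMNX1 and 4.81% in siNT libraries per kilobase of exon, and 18.3% in siMNX1 and 8.83% in siNT libraries per kilobase of coding length.

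ADCY2 and ADCY8 lie on different chromosomes. Within 500 kb of ADCY2, 3 other genes were tested and 0 were called by limma. An unadjusted p under 0.05 was met by 18.4% of all genes and by 1 of these 3. That gene was C5orf49, whose end lies 0.297 kb past that of ADCY2 on the opposite strand, at 228 ± 9.29 normalized counts in siMNX1 and 159.6 ± 30.7 in siNT libraries (log2 fold change 0.53, limma, adjusted p = 0.0799). MTRR and FASTKD3, further along, had log2 fold changes of 0.19 and 0.23. Within 500 kb of ADCY8 the 1 tested gene was ASAP1, with a log2 fold change of 0.10 (limma, adjusted p = 0.507). These neighbours were chosen by position after the members' values were seen.

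The genes whose log2 values over the 6 libraries ran most like those of ADCY2 were MSANTD2-AS1 (Pearson r = 0.998), TMEM190 (0.997) and STMN2 (0.997), of 12677 genes searched. Those most like ADCY8 were E2F5 (0.995), LINC02175 (0.995) and SHISA2 (0.993), of 12678 searched. ADCY1, the member with the most normalized counts over the 6 libraries together (ADCY6 had more in siNT libraries), ran most like ADARB1 (0.993), ARNT (0.989) and STAU2 (0.984). With 6 libraries in 2 groups, a high correlation mainly says that a gene separates the groups as the member does, and 191 genes exceeded 0.95 with ADCY2 and 144 with ADCY8.

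The other genes of cyclic AMP signalling were read from 10 fixed lists with 130 measured members, of which 15 were higher and 3 lower by limma (13.8% called, against 3.32% of all genes). These lists were drawn up with earlier results of these data known, and SST was among them, so the shares describe the lists and support nothing about them. Upstream of the cyclases, the G protein list held subunit genes and also RIC8A and RIC8B. Of its 30 genes 25 were measured, with 1 higher and 0 lower. GNG2, a Gγ subunit, rose to 2358 ± 49.3 normalized counts in siMNX1, against 1869 ± 70.9 in siNT (log2 fold change 0.34, limma, adjusted p = 0.0098). Of 10 measured Gs-coupled receptor genes 2 were higher and 0 lower. GPBAR1, a bile acid receptor, rose to 404 ± 18.1 in siMNX1, against 249.7 ± 7.62 in siNT (0.69 on the log2 scale, limma, adjusted p = 0.00318), and PTGER2, a prostaglandin E2 receptor, to 34.6 ± 6.84 in siMNX1, against 9.02 ± 5.76 in siNT (1.97, adjusted p = 0.0398). The PTGER2 call was lost without any library but siNT replicate 2 (0.0834 to 0.119), and the GNG2 call with no variance trend (0.0721).

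Receptors that lower cyclic AMP through Gi moved both ways, with 2 higher and 1 lower of 10 measured. PTGER3, another prostaglandin E2 receptor, rose to 597 ± 64.7 normalized counts in siMNX1, against 194 ± 17.6 in siNT (log2 fold change 1.62, limma, adjusted p = 8.09e-05). ADRA2A, the alpha2A adrenergic receptor that restrains insulin release, fell to 106 ± 7.21 in siMNX1, against 180.4 ± 10.6 in siNT (-0.77, limma, adjusted p = 0.0112), and was no longer called once siNT replicate 2 was left out (0.0601). FFAR2, a receptor for short-chain fatty acids, passed at 0.56 (limma, adjusted p = 0.0496), but not when any one library was left out (0.057 to 0.161).

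Downstream, 19 genes of protein kinase A, its inhibitors and anchors were measured, with 2 higher and 1 lower. PRKAR2B, a regulatory subunit, fell to 896 ± 44.7 normalized counts in siMNX1, against 1116 ± 16.4 in siNT (log2 fold change -0.32, limma, adjusted p = 0.0271). The anchors AKAP11 (0.31) and AKAP9 (0.29) rose (limma, adjusted p = 0.0257 and 0.0368). Leaving out any one library ended the AKAP9 call (0.0535 to 0.148). The PRKAR2B call was lost without any library but siMNX1 replicate 2 (0.0585 to 0.12), and the AKAP11 call without any but siMNX1 replicate 3 (0.0561 to 0.108). Of 9 other measured cyclic nucleotide-binding effectors 2 were higher and 0 lower. CNGA3, a cyclic nucleotide-gated channel subunit, rose to 748 ± 45.7 in siMNX1, against 486 ± 48.8 in siNT (0.62, limma, adjusted p = 0.00633), and the pacemaker channel gene HCN4 rose by 0.59 on the log2 scale (adjusted p = 0.0105, and 0.0596 without siNT replicate 3). With no variance trend both were just outside the threshold (0.0544 for CNGA3 and 0.0522 for HCN4).

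The list of CREB factors and coactivators had 11 genes and also held the kinase genes SIK1, SIK2 and SIK3. Of the 11, 0 passed the threshold by limma, with 3 higher and 0 lower at an unadjusted p under 0.05. Those 3 were CREBBP, EP300 and SIK3, where 18.4% of all genes had such a p. The most abundant of the 11 were CREBBP (2674 ± 584 normalized counts in siMNX1 and 2049.7 ± 188 in siNT, limma, adjusted p = 0.183) and CRTC1 (2079 ± 52.1 in siMNX1 and 2057 ± 115 in siNT, adjusted p = 0.911). Of 11 measured CREB target genes 2 were higher and 0 lower, SST and VGF. VGF, a granule protein precursor, rose to 599 ± 36.2 in siMNX1, against 377 ± 32.1 in siNT (log2 fold change 0.67, limma, adjusted p = 0.00461). The median over that list was -0.11.

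Among 12 measured genes of the phosphodiesterase list, most of whose products break cyclic nucleotides down, 2 were higher and 0 lower. PDE5A, which hydrolyses cyclic GMP, rose to 3349 ± 259.8 normalized counts in siMNX1, against 2133 ± 144 in siNT (log2 fold change 0.65, limma, adjusted p = 0.00148). PDE11A, which acts on both cyclic AMP and cyclic GMP, rose to 111 ± 6.8 in siMNX1, against 57.7 ± 4.41 in siNT (0.93, limma, adjusted p = 0.0119, and 0.053 without siNT replicate 2). Of 17 measured calcium and kinase regulators 1 was higher and 1 lower. CAMK4, a calmodulin kinase that acts on CREB, fell to 375 ± 94.3 in siMNX1, against 636 ± 23.2 in siNT (-0.79, limma, adjusted p = 0.0258), and CAMK2B rose by 0.68 (adjusted p = 0.04). The CAMK4 call ended without siMNX1 replicate 1 (0.084) or siNT replicate 1 (0.0777), 2 (0.0961) or 3 (0.102), and also with no variance trend (0.13). The CAMK2B call was lost without any library but siNT replicate 1 (0.0628 to 0.15). Of 6 measured guanylyl cyclases, the enzymes with the catalytic fold most like that of the family, 1 was higher and 0 lower. GUCY2C, the guanylin receptor, rose to 3992 ± 118 in siMNX1, against 3276 ± 99.1 in siNT (0.29, limma, adjusted p = 0.0142), which was lost without siMNX1 replicate 1 (0.0596), siNT replicate 1 (0.053) or siNT replicate 3 (0.0788).

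**Figure D4:**
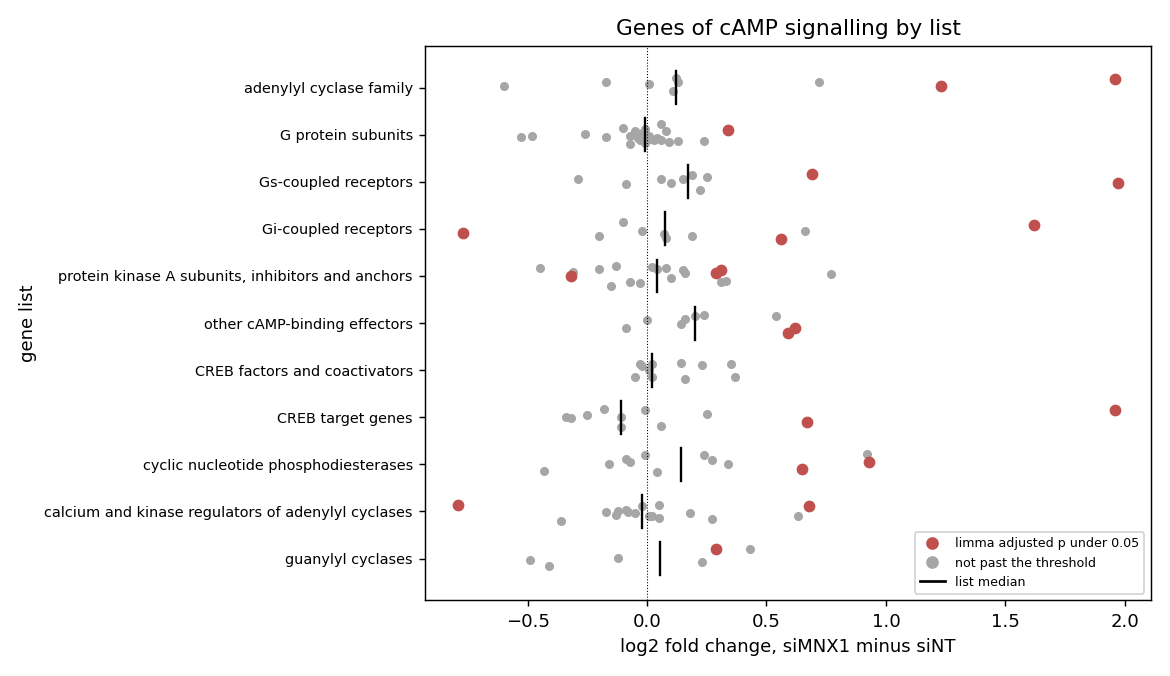
Log2 fold change (siMNX1 minus siNT) of every measured gene in the adenylyl cyclase family and the 10 other lists, red where the limma adjusted p is under 0.05, with black lines at list medians. The family median is 0.12 and its called genes are ADCY2 and ADCY8, and the list medians run from -0.11 (CREB target genes) to 0.2 (other cAMP-binding effectors).

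Of the other islet cells, delta cell markers changed beside ADCY2 and ADCY8, while alpha cell markers were not called. Of 6 delta cell markers 5 were measured, with SST, HHEX and CASR higher, RBP4 lower and LEPR not called. That was 80.0% called, against 3.32% of all genes. The list was drawn up with earlier results of these data known, so this share supports nothing about it. The summed delta level ran from 10038 to 11289 normalized counts in siMNX1 and from 7370.0 to 7568 in siNT libraries. CASR, the calcium-sensing receptor gene, made up most of that sum, with 8607 ± 656 in siMNX1 and 6112 ± 87.1 in siNT libraries. HHEX, a delta cell transcription factor, had 484 ± 24.4 in siMNX1 and 54.1 ± 10.6 in siNT libraries. Summed alpha cell markers (4 of 6 measured) ran from 7673 to 8624 in siMNX1 and from 7977 to 8681 in siNT libraries, with 0 called by limma and 0 at an unadjusted p under 0.05. TTR made up most of the alpha sum, with 7403 ± 461 in siMNX1 and 7422 ± 455 in siNT libraries. The 12 beta cell markers summed to between 161236 and 172727 in siMNX1 and between 148321 and 159301 in siNT libraries. Most of the beta sum was INS, which was not called (limma, adjusted p = 0.0656). PCSK1 and MAFA were higher and IAPP and G6PC2 lower, which was 33.3% of the beta list.

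Markers from outside the islet were few. For the counts that follow, 18.4% of all genes had an unadjusted p under 0.05 by limma. Of 6 acinar genes 2 were measured, at sums of 585 to 606 in siMNX1 and 554 to 640.1 in siNT libraries, and 0 were called by limma (0 at an unadjusted p under 0.05). The 1 measured ductal gene of 5 had 1318 to 1415 in siMNX1 and 1123 to 1291 in siNT libraries and was not called, though its unadjusted p was under 0.05. The 4 measured genes of 10 for mesenchyme, endothelium and immune cells summed to 5079 to 5686 in siMNX1 and 5798 to 6289 in siNT libraries, with 0 called by limma and 2 lower at an unadjusted p under 0.05. Those 2 were CD74 and CD68, and CD74 made up most of the sum (4055 ± 189 in siMNX1 and 4579.7 ± 136 in siNT libraries). Every gene in the table averaged at least 6.57 normalized counts, so no measured marker was at 0 throughout. The part of other cell types in the changes of ADCY2 and ADCY8 was not tested.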

How the data were processed

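RNA-seq of 6 EndoC-βH1 libraries was used, 3 siMNX1 and 3 siNT, grouped by their titles. The values are a signal with decimals, normalized counts per gene in a single table that the authors deposited for 16792 genes. The submitters' processing notes list DESeq2 1.26.0, DESeq, RSEM 1.3.1, STAR 2.7.6a and R 3.6.3, and the build GRCh38, in no stated order. Which tool did what, how genes were filtered and whether strand was used are not stated there. Whole reads could not be recovered: within 0.02 reads of a whole step lay 21.1% to 49.2% of the values below 12. No count model was fitted and no counting interval was computed, as the depth behind each value is unknown.

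Values were analysed as log2(value + 1) with limma 3.58.1 (R 4.3.3), group as the only term, a variance trend and Benjamini-Hochberg adjustment over all genes (threshold 0.05). The minimum mean of 5 left every gene in (lowest mean 6.57). The procedure was also run on simulated data with normal noise set by the fitted variance trend. Such data cannot show how it behaves where real values depart from that trend. Levels per kilobase used GENCODE 29 lengths, and promoters came from RefSeq tables on GRCh38.p14. Python 3.11.15, pandas 2.3.3, numpy 2.4.6 and matplotlib 3.10.9 were used for tables and plots.

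The members and lists were chosen with earlier results of these data known. Named genes were all members, MNX1, PERCC1 and SST, up to 4 called genes of each pathway list by adjusted p or, with none called, its 2 most abundant, and the 3 genes most like ADCY1 and each called member among genes with a mean of at least 50. Alternatives were other pseudocounts, filters, scalings, variance models and lengths, a replicate block and each library left out.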

Additional observations from a re-analysis of the deposited data

How the results depend on the processing

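ADCY2 was called higher under all 15 alternatives tried, with log2 fold changes from 1.1 to 1.35 and adjusted p from 0.000328 to 0.027. ADCY8 was called under 13 of 14, with log2 fold changes from 1.65 to 2.12 and adjusted p from 0.00765 to 0.0506. A minimum mean of 50 left 1 higher member, because ADCY8 was no longer tested, and the leave-one-out fits gave 1 to 2 higher and 0 to 0 lower members. Of the 7 members not called, ADCY5, ADCY6 and ADCY7 kept their sign in all 6 leave-one-out fits and the others did not. ADCY1 ran from -0.001 (without siMNX1 replicate 2) to 0.2, ADCY3 from -0.11 (without siMNX1 replicate 1) to 0.27, ADCY4 from -0.07 (without siNT replicate 1) to 0.34 and ADCY9 from -0.15 (without siMNX1 replicate 2; -0.09 without siNT replicate 2) to 0.14. CRTC1 ran from -0.02 (without siNT replicate 1; -0.0022 without siMNX1 replicate 2) to 0.06. Over all genes, 335 were higher and 223 lower. These counts were 131 and 60 with no variance trend, 162 and 75 with a replicate block, and 133 to 257 and 64 to 179 with one library left out. The causes were not tested, and the left-out fits also had fewer samples. The block kept both member calls, and same-numbered libraries did not deviate together (correlations of -0.0135, -0.00855 and -0.0377). With coding length in place of exon length, 5 of 9 members kept their place in the order of siMNX1 levels. Of the 19 called genes among those named outside the family, 6 kept their call under every alternative, and these fits were applied to them after the data were seen. The block ended the calls of PRKAR2B, AKAP11, CAMK2B, GUCY2C, PTGER2, FFAR2 and AKAP9 (adjusted p from 0.0652 to 0.111), and a fit with no variance trend ended these 7 too (0.0663 to 0.139). Depth is unknown, and the low values of ADCY4, ADCY5, ADCY7 and ADCY8 limit what can be seen in them.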
